A study of Rattus norvegicus with 4 samples.

Results

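The 10 genes considered here are apoptosis regulators of the Bcl2 family, chosen by their symbols in the deposited gene table: *Bax*, *Bak1*, *Bok*, *Bad*, *Bid*, *Bbc3*, *Bcl2l11*, *Bcl2l1*, *Bcl2l2* and *Mcl1*. Of these symbols, 8 matched a row among the 34773 genes of the table. No row carried the symbol *Bbc3* or *Mcl1*, and these genes were not analysed here. The libraries were made from poly(A) RNA of rat embryonic stem cells (ESCs), which the study grew on feeder cells. The 1 control library, labelled WT, corresponds in the study to DA-5-3 GFP cells, that is, the ESC line DA-5-3 with a *Rex1*-GFP reporter. The other 3 libraries came from 1 *Thop1*-KO subclone each (#1, #2 and #3), obtained from DA-5-3 GFP with Cas9 and a guide against *Thop1*, followed by puromycin selection. All 4 libraries therefore share the reporter, every subclone is a single clone, and the control is a single library. The study describes DA-5-3 as diploid, whereas the design text deposited with the data speaks of haploid ESCs. *Thop1* encodes thimet oligopeptidase, a zinc metallopeptidase that cleaves short peptides.

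Proteins of the Bcl2 family decide whether the outer mitochondrial membrane stays intact when a cell is stressed. BAX, BAK1 and BOK are effectors, which form pores in that membrane and let cytochrome c escape into the cytosol, where it starts the caspase cascade. The BH3-only proteins BAD, BID, PUMA (encoded by *Bbc3*) and BIM (encoded by *Bcl2l11*) carry stress signals to the family, either by engaging the effectors or by occupying their inhibitors. BCL-XL (*Bcl2l1*), BCL-W (*Bcl2l2*) and MCL1 are the anti-apoptotic inhibitors. Pluripotent stem cells are known to enter mitochondrial apoptosis readily.

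The 8 genes were compared between *Thop1*-KO and the control because the study looked at pluripotency and apoptosis genes among those that differ between these cells. Levels are given in CPM, which are counts scaled to library size with TMM factors. A gene is called where its adjusted p is below 0.05 (quasi-likelihood test of edgeR, Benjamini-Hochberg adjustment over the 15028 genes with enough counts), and every adjusted p is of this kind unless another tool is named. The counts on genes summed to between 15405499 and 17936544 per library. *Thop1* was at 110, 92.5 and 149 CPM in #1, #2 and #3 and at 370 in the control (log2 fold change -1.66 with a standard error, SE, of 0.29, adjusted p = 0.0187). Among 11 ESC markers tested, 2 were called higher and 2 lower, beside 8.62% and 5.17% of all genes tested. Of those called, *Fgf4* averaged 10.3 times the control over the subclones, *Sall4* 6.61, *Utf1* 0.352 and *Dppa5* 0.494. *Pou5f1*, *Sox2* and *Nanog*, which were not called, had at least 4539 counts in every library. Of 9 fibroblast markers, which could come from feeder cells, *Thy1*, *Dcn* and *Lum* were at 0 counts in all libraries. The remaining 6 (*Col1a1*, *Col3a1*, *Pdgfrb*, *Postn*, *Fbn1* and *Vim*) were lowest in the control, beside 38.1% of all genes tested. Of these 6, 0 were called by edgeR and 1 by DESeq2, beside 13.8% and 21.5% of all genes. An unadjusted p below 0.05 from edgeR was found for 2 of them, beside 34% of all genes. The summed level of the list was 257 CPM in the control and 385, 778 and 498 in #1, #2 and #3. Of 5 primitive endoderm markers tested, 0 were called by edgeR or DESeq2. Without adjustment, 3 had a p below 0.05 from edgeR, beside 34% of all genes. Of these 3 markers, *Sox17* was higher in the subclones, at 34, 37 and 47 counts in #1, #2 and #3 against 10 in the control. *Dab2* was also higher, at 8, 22 and 9 counts against 0. *Gata4* was lower, at 3, 0 and 3 counts in #1, #2 and #3 against 17 in the control. The list summed to 3.03 CPM in the control and 5.06 to 7.39 in the subclones. The part of these markers in the results below was not tested. With 1 library on one side and 3 on the other, the smallest two-sided p of an exact permutation test is 0.25. The adjusted values therefore lean on the variance model of edgeR, whose spread comes from the 3 subclones. A difference between genotypes and a difference of the single control library cannot be told apart. In bulk RNA, fewer cells of a type and less RNA per cell cannot be told apart either.

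The start regions of the genes are shown first for *Bid* and *Bcl2l2*, the pair of members called higher in *Thop1*-KO, and for *Bad* and *Bcl2l11*, BH3-only genes that were not called. RefSeq (GRCr8) holds a start region for 7 of the 10 symbols, with 1 entry each except for *Bcl2l1*, which has 4. *Bax* and *Bok* had no entry. The deposited counts use another annotation, so these windows are shown as sequence and were not linked to the reads. Each window holds the 250 bases before the annotated start, read 5′ to 3′ on the strand of the gene. Capitals mark the GC box letters GGGCGG and the FOXO letters TGTTTAC, searched on both strands (a match on the other strand reads CCGCCC or GTAAACA). The windows are chr4:155808320-155808569 on the minus strand (*Bid*), chr15:32326511-32326760 on the plus strand (*Bcl2l2*), chr1:213562864-213563113 on the plus strand (*Bad*) and chr3:135819792-135820041 on the plus strand (*Bcl2l11*).
Bid: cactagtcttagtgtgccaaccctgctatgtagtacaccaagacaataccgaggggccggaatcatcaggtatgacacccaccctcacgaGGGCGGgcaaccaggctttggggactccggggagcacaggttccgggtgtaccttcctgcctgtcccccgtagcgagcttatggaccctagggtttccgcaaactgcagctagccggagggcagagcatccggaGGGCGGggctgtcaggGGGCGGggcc
Bcl2l2: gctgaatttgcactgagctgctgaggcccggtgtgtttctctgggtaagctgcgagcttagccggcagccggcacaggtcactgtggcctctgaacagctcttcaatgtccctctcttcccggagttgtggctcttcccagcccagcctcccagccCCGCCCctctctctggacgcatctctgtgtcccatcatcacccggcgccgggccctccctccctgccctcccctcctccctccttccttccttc
Bad: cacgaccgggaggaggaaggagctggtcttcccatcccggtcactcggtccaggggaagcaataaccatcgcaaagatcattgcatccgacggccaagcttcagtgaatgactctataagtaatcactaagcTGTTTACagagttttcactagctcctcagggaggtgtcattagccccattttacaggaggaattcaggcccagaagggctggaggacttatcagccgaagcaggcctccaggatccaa
Bcl2l11: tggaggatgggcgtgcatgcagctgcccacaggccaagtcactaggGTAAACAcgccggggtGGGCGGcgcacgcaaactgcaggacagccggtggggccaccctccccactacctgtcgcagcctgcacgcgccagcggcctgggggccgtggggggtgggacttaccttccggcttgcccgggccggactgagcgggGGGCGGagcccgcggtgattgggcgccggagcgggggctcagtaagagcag

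GGGCGG occurred 3 times before *Bid*, ending 154, 20 and 4 bases from the start, once before *Bcl2l2*, 88 bases from the start, and 2 times before *Bcl2l11*, 182 and 45 bases from the start. It also occurred once before *Bak1*, which was not called, 36 bases from the start, and once before *Mcl1*, 85 bases from the start. It was absent before *Bad* and from the 4 windows of *Bcl2l1*. In all, 5 of the 10 member windows held it. Of all 33469 start regions of the same length in the table, 30.5% held these letters. TGTTTAC occurred once before *Bad*, 111 bases from the start, and once before *Bcl2l11*, 197 bases from the start, and in no other window of a member. Among all start regions, 3.21% held it. GC content was 62.8% before *Bid*, 64.0% before *Bcl2l2*, 52.4% before *Bad* and 72.0% before *Bcl2l11*, beside a median of 51.2%. The letters are a description of these windows, and occupancy by a factor was not measured.

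Of the 8 genes, all of which passed the filter on low counts, 2 were higher in *Thop1*-KO and 0 were lower at the threshold. Those called were *Bid*, which is pro-apoptotic, and *Bcl2l2*, which is anti-apoptotic. Among all genes tested, 13.8% were called in either direction, 8.62% higher and 5.17% lower. Without adjustment, 3 of the 8 had a p below 0.05 (*Bid*, *Bcl2l2* and *Bax*), as did 34% of all genes. DESeq2's Wald test also called 2 of the 8, *Bid* and *Bcl2l2*, beside 21.5% of the genes it tested, and 0 of them lower. The control lay below all 3 subclones for 2 genes and above all 3 for 3 genes, and inside their range for the other 3. Over all genes tested these shares were 38.1% below and 37.6% above. The median log2 fold change of the 8 genes was 0.07, beside 0.06 over all genes tested.

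**Figure D1:**
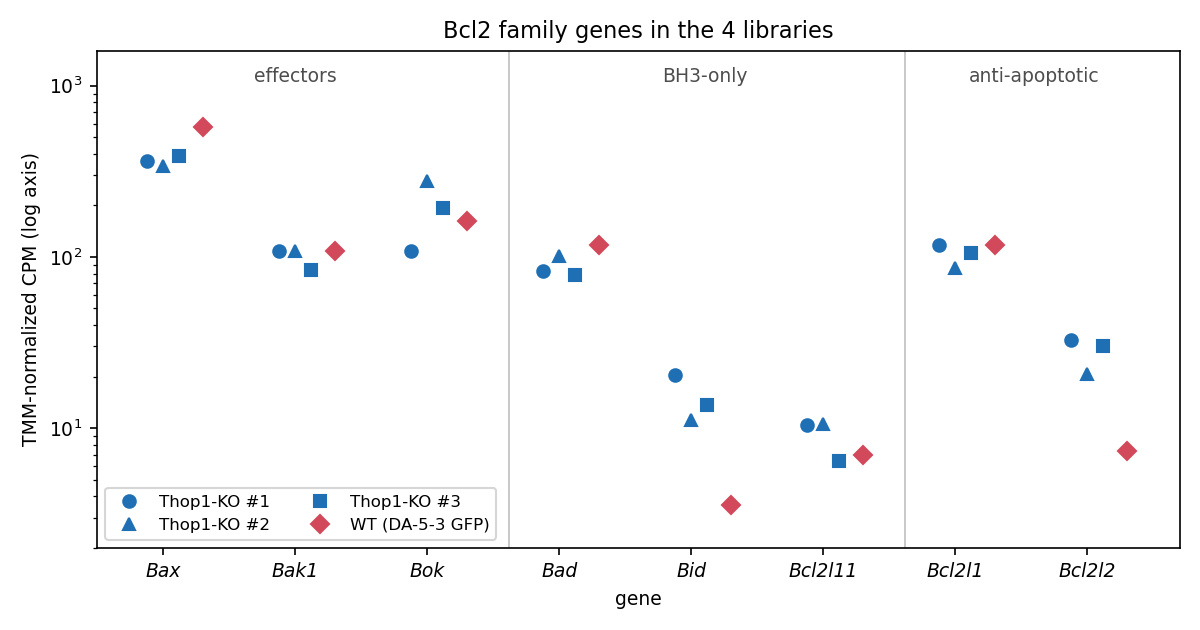
TMM-normalized CPM (log axis) of the 8 Bcl2 family genes in each library, grouped by role, with the 3 Thop1-KO subclones as blue circles (#1), triangles (#2) and squares (#3) and the single WT control as red diamonds. Bid and Bcl2l2 lie higher in all subclones than in the control, Bax lies lower, and for Bak1, Bok and Bcl2l11 the control lies inside the range of the subclones.

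Among the effectors, *Bax* (ENSRNOG00000020876, minus strand of chromosome 1, 101451802 to 101457207, 1277 bases of exon sequence) was the most strongly expressed gene of the family. It was at 364, 338 and 389 CPM in #1, #2 and #3 and at 576 in the control. The control lay above every subclone, and the subclones differed from each other little, with a coefficient of variation of 7.05% beside a median of 23.4% over all genes tested. The subclones were at 63.2%, 58.7% and 67.5% of the control. The log2 fold change of *Bax* was -0.66 (SE 0.21, 95% interval -1.16 to -0.17), and its adjusted p-value of 0.0776 did not pass the threshold. *Bax* passed with upper quartile normalization (adjusted p = 0.0446 from edgeR) and without subclone #2 (adjusted p = 0.0199), and in none of the other 11 alternatives. The study itself names *Bax* from these libraries, so its direction here is not independent evidence.

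*Bak1* (ENSRNOG00000000485, minus strand of chromosome 20, 5609625 to 5618260, 2026 bases) encodes the effector that resides at the outer mitochondrial membrane. It was at 108, 109 and 84.4 CPM in #1, #2 and #3 and at 108 in the control. Subclones #1 and #2 were at the level of the control and #3 was lower. The log2 fold change of -0.11 (95% interval -0.73 to 0.52, adjusted p = 0.799) allows a change of up to 1.43-fold upwards and down to 0.602 of the control.

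*Bok* (ENSRNOG00000018214, plus strand of chromosome 9, 100829552 to 100840504, 1400 bases), an effector that is less dependent on the anti-apoptotic proteins, varied most of the 8 genes among the subclones. It was at 109, 276 and 192 CPM in #1, #2 and #3 and at 161 in the control, so the control lay inside the range of the subclones. The highest subclone was 2.54 times the lowest, and the coefficient of variation was 43.5%. *Bok* had a log2 fold change of 0.25 (95% interval -0.88 to 1.39, adjusted p = 0.733) and turned to -0.099 without #2. In #2, where *Bok* was highest, the summed fibroblast markers were also highest, at 778 CPM beside 385 and 498 in #1 and #3. The part of those markers in the spread of *Bok* was not tested.

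Of the BH3-only members, *Bid* (ENSRNOG00000012439, minus strand of chromosome 4, 153442218 to 153465203, 1992 bases) was the one called higher. BID is cut by caspase-8 and its fragment then moves to mitochondria, which links death receptors to the mitochondrial pathway. The counts of *Bid* were 341 in #1, 197 in #2 and 245 in #3, and 53 in the control. In CPM these were 20.3, 11.1 and 13.6 against 3.57, for which counting error alone gives 2.67 to 4.66 (95% exact Poisson interval). All 3 subclones were above the control, and #1 was 1.82 times #2. On the log2 scale *Bid* was 2.07 higher (SE 0.50, adjusted p = 0.0412), a 4.21-fold higher level with a 95% interval of 1.84 to 9.62. The call was lost without #3 (log2 fold change 2.14, adjusted p = 0.114) and with limma on log2(FPKM + 1) (1.57, adjusted p = 0.0578), and the direction was the same in every alternative run. The caspase-8 gene *Casp8* itself never exceeded 3 counts, too few to detect a difference.

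*Bad* (ENSRNOG00000021147, plus strand of chromosome 1, 222198534 to 222207453, 1001 bases), whose protein is held inactive by 14-3-3 proteins when survival kinases phosphorylate it, was at 83.2, 101 and 78.2 CPM in #1, #2 and #3 and at 117 in the control. The control lay above every subclone. The log2 fold change of -0.42 (95% interval -1.03 to 0.19) had an adjusted p-value of 0.280.

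*Bcl2l11* (ENSRNOG00000016551, plus strand of chromosome 3, 120726906 to 120764192, 5141 bases) encodes BIM, which ERK phosphorylation marks for degradation. Its counts were 175, 187 and 116 against 103 for the control, that is 10.4, 10.6 and 6.46 CPM against 6.93. Subclones #1 and #2 were above the control and #3 was below it. *Bcl2l11* had a log2 fold change of 0.40 (95% interval -0.64 to 1.44, adjusted p = 0.543), and the interval allows a change of up to 2.72-fold.

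Among the anti-apoptotic genes, *Bcl2l2* (ENSRNOG00000015732, plus strand of chromosome 15, 33544312 to 33549164, 3520 bases) was called. Its counts were 552 in #1, 365 in #2 and 545 in #3, and 110 in the control. The CPM values were 32.9, 20.6 and 30.3 against 7.40 (6.08 to 8.92 from counting error alone). Every subclone lay above the control, the lowest being #2 at 279% of it. On the log2 scale *Bcl2l2* was 1.92 higher (SE 0.42, adjusted p = 0.0315), a 3.77-fold higher level with a 95% interval of 1.90 to 7.49. Without #3 the adjusted p-value was 0.116 at a log2 fold change of 1.85, and with limma on log2(FPKM + 1) it was 0.0513. *Bcl2l2* overlaps no other gene of the table, and *Pabpn1* begins 6475 bases beyond its end.

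*Bcl2l1* (ENSRNOG00000007946, minus strand of chromosome 3, 148259596 to 148313810, 4118 bases) encodes BCL-XL, the anti-apoptotic gene with the higher level of the pair measured. It was at 117, 86.4 and 106 CPM in #1, #2 and #3 and at 117 in the control. Subclone #1 was at 99.9% of the control, and #2 was lowest. Its log2 fold change was -0.18 (95% interval -0.82 to 0.45, adjusted p = 0.649). Inside its span, on the plus strand, the table lists LOC108353446, a pseudogene of 930 bases with 911, 769 and 634 CPM in the subclones and 1490 in the control. That pseudogene was called lower (log2 fold change -0.95, adjusted p = 0.0467). Strand use in the counting is not given in the sources used here, and reads of the pair could not be told apart where their exons meet. None of the other 7 genes overlaps a gene of the table.

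**Figure D2:**
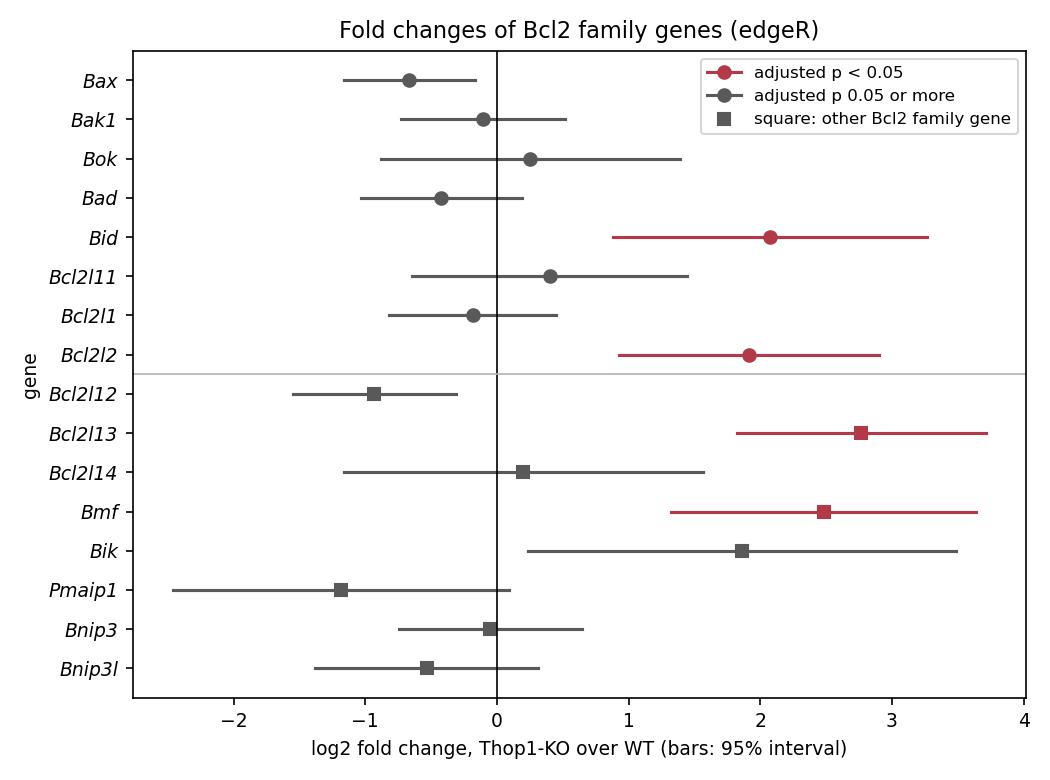
Log2 fold change of Thop1-KO over WT from edgeR for the 8 Bcl2 family genes (circles, above the line) and 8 further family genes tested (squares), with 95% intervals that are not adjusted for the number of genes. Bid, Bcl2l2, Bcl2l13 and Bmf, in red, passed an adjusted p-value of 0.05, all on the side of higher levels.

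To compare the genes with each other, the CPM values were divided by the exon length in kilobases. In all 4 libraries *Bax* ranked 1, *Bak1* 4, *Bcl2l1* 5 and *Bcl2l11* 8 of the 8. The levels of *Bak1* in the subclones, 41.6 to 53.6 CPM per kilobase, did not overlap those of *Bcl2l1*, 21.0 to 28.4. The level of *Bax* in the control, 451 CPM per kilobase, was 3.91 times that of *Bok*, 3.85 times that of *Bad*, 15.8 times that of *Bcl2l1* and 335 times that of *Bcl2l11*. *Bok* and *Bad* changed places between libraries, with *Bok* ahead in #2 and #3 and *Bad* ahead in #1 and the control. Their levels over the subclones, 77.7 to 197 CPM per kilobase for *Bok* and 78.1 to 101 for *Bad*, overlapped. *Bid* and *Bcl2l2* were as close to each other, at 7.55 ± 2.39 and 7.94 ± 1.84 CPM per kilobase (SD, n = 3). The 4.21-fold rise of *Bid* thus took place at a level far below the effectors, and *Bid* made up 0.232% of the summed level of the 8 genes in the control and 0.860% to 1.86% in the subclones.

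By role, the 3 effectors summed to 416, 515 and 483 CPM per kilobase in #1, #2 and #3 and to 620 in the control. The 3 BH3-only genes measured summed to 95.4, 109 and 86.2 against 120, and most of that was *Bad*. The pair of anti-apoptotic genes measured summed to 37.8, 26.8 and 34.3 against 30.6. The effector and BH3-only sums were thus highest in the control, and the control lay inside the range of the subclones for the anti-apoptotic sum. *Bax* alone was 58.5% of the summed level of the 8 genes in the control and 51.9%, 40.6% and 50.4% in the subclones. These sums lack *Bbc3* and *Mcl1*.

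**Figure D3:**
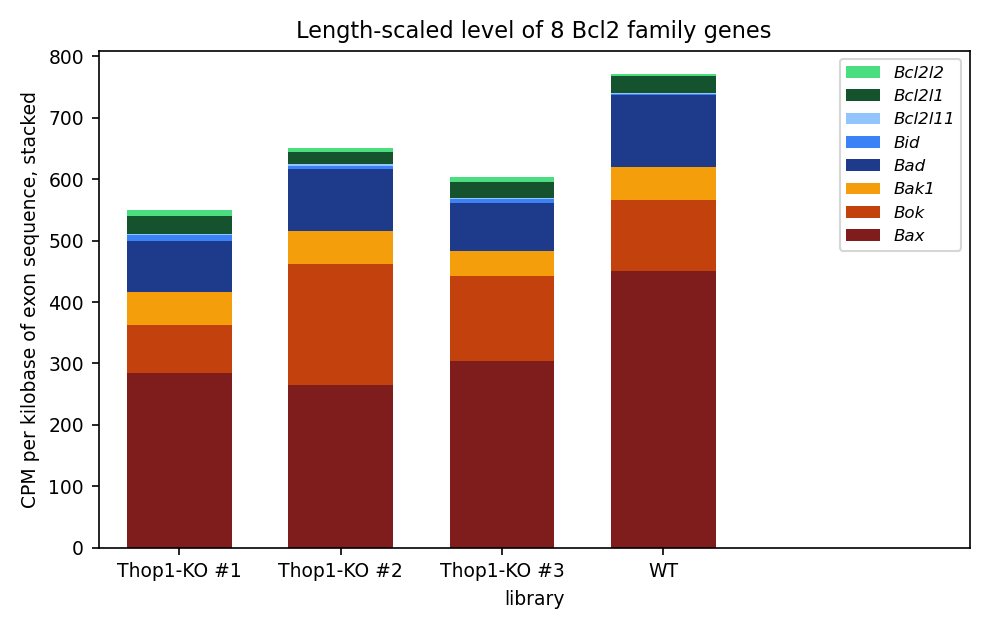
Stacked level of the 8 Bcl2 family genes in CPM per kilobase of exon sequence, 1 bar per library, with effectors at the bottom, BH3-only genes in blue and anti-apoptotic genes in green at the top. Bax takes the largest share of every bar, and the Bax segment is 451 in the control and 285, 265 and 305 in the subclones.

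The log2 ratio of the anti-apoptotic to the effector sum, which does not depend on library scaling, was -3.46, -4.26 and -3.82 in #1, #2 and #3 and -4.34 in the control. The mean of the subclones was 0.49 above the control, beside an SD of 0.40 among them. Every subclone was above the control, and #2 was close to it. For the anti-apoptotic to the BH3-only sum, the log2 ratios were -1.34, -2.02 and -1.33 against -1.98. Here #2 was below the control, and the mean difference of 0.42 was about as large as the SD of 0.40. No p-value is given for these ratios.

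Fold changes in these libraries went with gene length. Over all genes tested, the median log2 fold change was -0.42 in the shortest of 4 length classes of nearly equal size (up to 1240 bases of exon sequence), -0.02 and 0.18 in the next classes and 0.35 in the longest (from 3369 bases). *Bad*, in the shortest class, had a log2 fold change of -0.42, equal to the median of its class. *Bcl2l11*, in the longest class, was at 0.40 beside 0.35. *Bid*, at 2.07, and *Bcl2l2*, at 1.92, lay far above their classes, and *Bax*, at -0.66, lay below its own. With each library corrected for gene length by loess, *Bid* remained called at 1.99 (adjusted p = 0.0476) and *Bcl2l2* at 1.71 (adjusted p = 0.0476). *Bax* moved to -0.49 (adjusted p = 0.155) and *Bad* to -0.14 (adjusted p = 0.731). The log2 ratio of anti-apoptotic to effector genes was then 0.12 above the control, and that of anti-apoptotic to BH3-only genes was -0.078, below it.

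**Figure D4:**
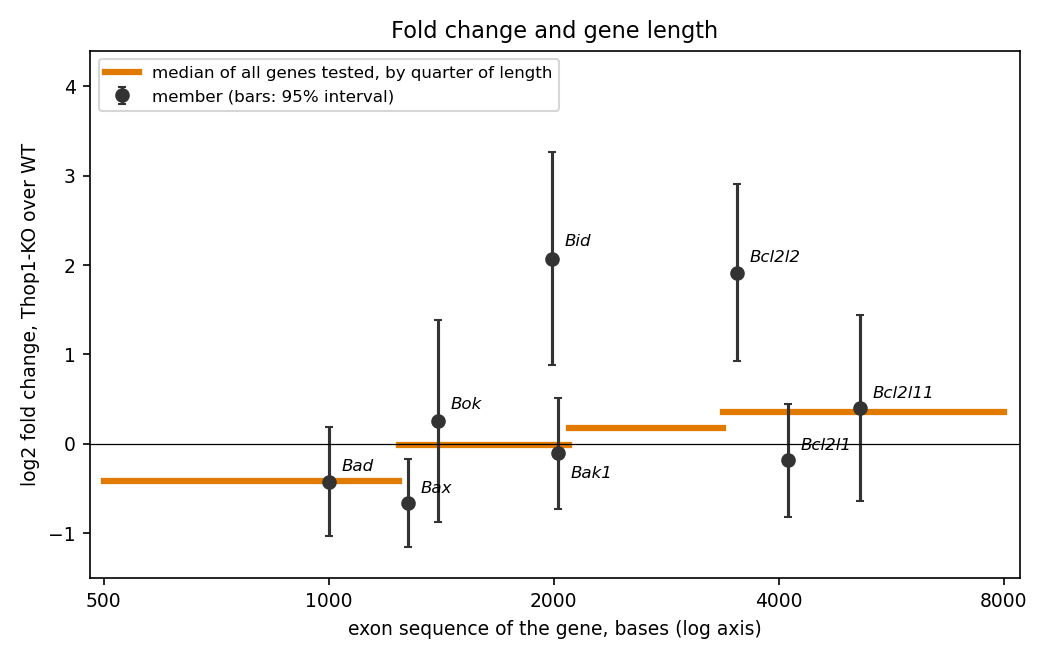
Log2 fold change of the 8 Bcl2 family genes (points, with 95% intervals) against the length of their exon sequence (log axis), with the median of all genes tested in each length class as orange lines, the outer classes being drawn only as far as the axis reaches. The orange lines climb from -0.42 to 0.35, and Bid and Bcl2l2 lie well above them.

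Further genes of the family were examined as a list of relatives. Of 12 that matched a row, 8 were tested, of which 2 were higher and 0 lower, beside 8.62% and 5.17% of all genes, with a median log2 fold change of 0.08. *Bcl2l13*, a mitochondrial membrane protein that also acts as a receptor for mitophagy, was at 22.7, 30.4 and 25.4 CPM in #1, #2 and #3 against 3.84 (log2 fold change 2.77, SE 0.40, adjusted p = 0.0114). It lies 5557 bases from *Bid* on chromosome 4, with a locus that has no symbol nearer to *Bid*. *Bmf*, a BH3-only gene whose protein is tied to the cytoskeleton until it is released, was at 10.3, 8.60 and 7.12 against 1.55 (log2 fold change 2.48, SE 0.49, adjusted p = 0.0256). The call of *Bmf* was lost without #3, at an adjusted p-value of 0.0801. DESeq2, which called 21.5% of all genes, called 4 genes of the list, adding *Bik* and *Bcl2l12*, which are named here after their values were seen. *Bik*, a BH3-only gene, was at 78.2, 24.2 and 37.9 CPM against 12.9 and *Bcl2l12* at 27.2, 27.3 and 24.3 against 50.1. *Bcl2* and *Bcl2a1*, both anti-apoptotic, never exceeded 7 counts, too few to detect a difference.

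Among proteins that bind or regulate the family, 24 of 25 matched genes were tested, of which 2 were higher and 1 was lower, a share close to the 13.8% of all genes called, with a median log2 fold change of -0.05. *Huwe1*, a ubiquitin ligase known to act on MCL1, was at 191, 279 and 237 CPM in #1, #2 and #3 against 74.0 (log2 fold change 1.67, adjusted p = 0.0213). *Itpr3*, a calcium channel of the endoplasmic reticulum that BCL-XL and BCL2 bind, was at 242, 160 and 232 against 48.6 (2.12, adjusted p = 0.0158). *Ywhab*, a 14-3-3 protein of the kind that holds BAD in the cytosol, was lower at 123, 152 and 133 against 259 (-0.93, adjusted p = 0.0435). *Huwe1* lost its call without #3 (adjusted p = 0.0729). *Ywhab* was called in 7 of 13 alternatives, and its adjusted p-value reached 0.191 without #3. *Itpr3* was called in all 13. DESeq2 called 4 genes of this list, beside 21.5% of all genes, adding *Dynll1*, which is named here after its values were seen. *Dynll1* was lower in the subclones, at 115, 241 and 109 CPM in #1, #2 and #3 against 435. Its log2 fold change of -1.49 was the lowest of the list, and edgeR did not call it. Without #2, 11 genes of this list were called beside 37.9% of all genes, and without #3 there was 1 beside 3.10%.

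Downstream of the family, 17 of 18 matched genes of the apoptosome and caspase axis were tested, of which 3 were higher and 0 lower, beside 8.62% and 5.17% of all genes, with a median log2 fold change of 0.23. *Apaf1*, the scaffold that cytochrome c assembles into the apoptosome, was at 13.5, 17.1 and 13.4 CPM in #1, #2 and #3 against 4.98 (log2 fold change 1.56, adjusted p = 0.0452). *Birc6*, a large inhibitor of apoptosis protein, was at 12.7, 17.3 and 17.5 against 3.30 (2.26, adjusted p = 0.0224). *Xiap*, which blocks caspases directly, was counted 13, 20 and 19 times against 0 for the control (adjusted p = 0.0473), and was at least 4.89-fold higher against a floor of 3 counts in the control library. *Apaf1* was called in 8 of 13 alternatives and *Xiap* in 7 of the 12 that gave it a value. With the length correction *Apaf1* was at 1.26 (adjusted p = 0.0743) and *Xiap* had an adjusted p-value of 0.0546. None of the 3 genes was called without #3 or with limma on either log2(FPKM) scale. DESeq2 called 5 genes of this list, beside 21.5% of all genes, and 7 were called without #2, beside 37.9%.

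Of transcription factors that are known to induce BH3-only genes, 6 of 8 matched genes were tested, of which 2 were higher and 0 lower, beside 8.62% and 5.17% of all genes, with a median log2 fold change of -0.14. *Foxo1* was at 77.2, 47.9 and 64.5 CPM in #1, #2 and #3 against 7.6 (log2 fold change 3.05, adjusted p = 0.00972), and this call held in every alternative run. *Foxo3*, whose protein is a known activator of *Bcl2l11* and *Bbc3*, was at 55.4, 46.9 and 62.0 against 17.2 (1.67, adjusted p = 0.0230), and lost its call without #3 (0.104).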

How the data were processed

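The authors deposited raw counts per gene and FPKM values. HISAT2 2.0.5 and featureCounts 1.5.0-p3 are listed in the submitters' processing notes, and the study names the FASTX toolkit. The genome build is not given in the sources used here. Coordinates are those of the deposited table. No per-sample column was left unused.

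Counts were tested with edgeR 4.0.16 in R 4.3.3 (filterByExpr with a minimum count of 10, TMM, quasi-likelihood test, Benjamini-Hochberg adjustment). Standard errors are the log2 fold change over the square root of F. DESeq2 1.42.0, limma 3.58.1 on the deposited FPKM values as log2(FPKM + 1) and log2(FPKM + 0.1), other scalings and filters, a loess correction for gene length (span 0.3) and leaving out each subclone were alternatives. DESeq2, the tool of the study, was an alternative and not the main test. The test was run on simulated counts, where it called many of the large changes and missed the small ones, so a gene that is not called may still differ. The simulated control was given the spread of the subclones, so this run could not test whether the real control shares that spread. Chi-square per degree of freedom was at least 24.4 for every pair of libraries, so none is a duplicate. Nothing in the labels says that the subclones were cultured separately. The p-values rest on the spread among the subclones and hold no spread among controls, since the control is a single library. Intervals on single counts cover counting error only.

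The members and gene lists were chosen with earlier results of these data known. Named genes are the 8 members, every called gene of the 4 further apoptosis lists, and *Thop1*. Other genes (*Casp8*, *Bcl2*, *Bcl2a1*, *Bik*, *Bcl2l12*, *Dynll1*, LOC108353446) were named after their values were seen, as were the ESC and primitive endoderm markers given with a change. Start regions are from RefSeq GRCr8. Figures were drawn with matplotlib 3.10.9.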

Additional observations from a re-analysis of the deposited data

How the results depend on the processing

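No paired analysis was possible because the control has 1 library and its label carries no replicate number. For the same reason the control could not be left out. With each subclone left out in turn, 0 to 2 of the 8 genes were called higher and 0 to 1 lower. The calls ran from 1 to 6 among the relatives, 1 to 11 among the binding partners, 0 to 7 in the caspase axis and 1 to 4 among the inducers, and over all genes from 354 to 3096 higher and 103 to 2476 lower. The lowest counts over all genes came without #3 and the highest without #2. The log2 ratios of anti-apoptotic to effector and to BH3-only genes stayed 0.30 to 0.70 and 0.30 to 0.64 above the control with a subclone left out, and were 0.81 and 0.15 above it with each gene scaled to its mean before summing. Limma on log2(FPKM + 1) called 0 of the 8 genes higher and 0 in the caspase axis, and on log2(FPKM + 0.1) 0 in the caspase axis. Upper quartile scaling called 1 of the 8 lower, *Bax*. DESeq2 called 4 relatives, 5 genes of the caspase axis and 1987 genes higher in all. An unadjusted p-value under 0.05 with a fold change of 2 called 5 in the caspase axis, and 2443 higher and 1597 lower over all genes. Reversed signs were *Bak1* without #3 (0.0037, the range over the subclones left out being -0.17 to 0.0037), *Bok* without #2 (-0.099, with a range of -0.099 to 0.55) and, with the length correction, the ratio of anti-apoptotic to BH3-only genes (-0.078). The cause was not tested. Of the other log2 fold changes of the 8 members and the 10 called genes of the apoptosis lists (*Thop1* was not rerun), 203 kept direction and call, 26 lost a call and 2 gained one, both of *Bax*. The 53 and 110 control counts of *Bid* and *Bcl2l2* limit the precision of their folds.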

Other observations

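The deposited table lists loci that carry no symbol. One of them, on the plus strand of chromosome 2 with 3363 bases of exon sequence, lies between *Ensa* and *Adamtsl4*, the protein-coding genes that flank *Mcl1* in RefSeq GRCr8. It was at 189, 124 and 149 CPM in #1, #2 and #3 and at 147 in the control, so the control lay inside the range of the subclones (log2 fold change 0.07, adjusted p = 0.887 from edgeR). Another, on the plus strand of chromosome 1 with 1122 bases, lies between *Ccdc9* and *Sae1*, which flank *Bbc3* in the same RefSeq assembly. It was at 88.2, 25.4 and 49.8 CPM against 39.3, a wide spread among the subclones with the control inside it (log2 fold change 0.47, adjusted p = 0.620 from edgeR). Both loci were found after the data were seen. The builds differ, whether either locus belongs to the neighbouring symbol was not tested, and their values enter no count or sum of the family.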
